A study of Mus musculus with 35 samples.

Results

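Transcripts of the ionotropic and metabotropic receptors for glutamate and γ-aminobutyric acid (GABA) were measured in cells sorted from the embryonic mouse brain (E14.5). Members were the genes whose symbols name a subunit of an AMPA, NMDA, kainate, delta or metabotropic glutamate receptor or of a GABA-A or GABA-B receptor. The rule found 47 genes, all protein coding, of 21942 protein-coding genes in the bulk table. Of these, 26 encode glutamate receptor subunits and 21 encode GABA receptor subunits. The rule reads gene symbols alone, but it was set with earlier results of these data known. The bulk RNA-seq comprised 12 libraries, 1 for each of 4 sorted populations from each of 3 wild-type brains. The libraries' titles carry a number (Mu-340, Mu-343 or Mu-346 in the case of mural cells), which was read as the number of the brain. The brains are called 1, 2 and 3 in this order below. Neural cells were taken as the cells negative for CD45, CD41, CD11b, PECAM1, CD102 and PDGFRβ, so the gate holds neurons together with their progenitors. Mural cells, the pericytes and smooth muscle cells of the vessel wall, were PDGFRβ high, endothelial cells were positive for PECAM1 and CD102, and microglia were CD45 medium and CD11b positive. Single-cell transcripts were counted by mCEL-Seq2 in wild-type wells on 3 plates with the sort gate recorded for each well. There the microglia gate reads CD45 medium and CD41 positive.

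Glutamate and GABA are the main fast transmitters of the brain. Ionotropic receptors are channels built from several subunits, so the set of subunits a cell transcribes limits which channels it can assemble, while metabotropic glutamate receptors and the GABA-B receptor signal through G proteins. In the embryonic brain these receptors appear on young neurons before most synapses have formed, GABA is depolarizing at this stage, and both transmitters are known to act on dividing progenitors. Outside neurons, metabotropic glutamate receptors are best known from glia.

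Upstream sequences of 4 members are shown because their levels differed most in kind between the populations: *Grm3* was highest in mural cells, *Gabbr1* had reads in every library, *Gria2* was the AMPA receptor subunit with the highest neural level per kb, and *Grin1* was at 0 in all mural libraries. Each is the 250 bases before the RefSeq start of the gene in GRCm38.p6, 5′ to 3′ on the gene's strand. They lie at chr5:9725353-9725602 on the minus strand (*Grm3*), chr17:37045716-37045965 on the plus strand (*Gabbr1*), chr3:80802836-80803085 on the minus strand (*Gria2*) and chr2:25319188-25319437 on the minus strand (*Grin1*). Capitals mark GGGCGG, the core of the GC box, and GGACAG, part of the RE1 element to which the repressor REST binds. Both motifs were searched on both strands and chosen after the sequences had been seen, and no marked match overlaps another.

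Grm3: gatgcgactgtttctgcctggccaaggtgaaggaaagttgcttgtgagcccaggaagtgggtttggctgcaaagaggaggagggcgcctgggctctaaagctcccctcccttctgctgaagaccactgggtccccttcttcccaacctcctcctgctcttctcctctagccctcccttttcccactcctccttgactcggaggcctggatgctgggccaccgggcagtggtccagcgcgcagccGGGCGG
Gabbr1: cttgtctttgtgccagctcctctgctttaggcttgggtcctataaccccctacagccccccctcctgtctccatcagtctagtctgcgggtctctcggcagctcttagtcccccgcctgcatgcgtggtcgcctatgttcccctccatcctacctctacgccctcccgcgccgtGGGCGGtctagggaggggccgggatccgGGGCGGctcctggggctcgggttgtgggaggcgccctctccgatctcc
Gria2: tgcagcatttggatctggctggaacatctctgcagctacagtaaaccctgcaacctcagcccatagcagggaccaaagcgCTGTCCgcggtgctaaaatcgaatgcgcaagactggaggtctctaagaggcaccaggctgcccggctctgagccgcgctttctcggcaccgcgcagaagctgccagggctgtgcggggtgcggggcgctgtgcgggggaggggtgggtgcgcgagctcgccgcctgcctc
Grin1: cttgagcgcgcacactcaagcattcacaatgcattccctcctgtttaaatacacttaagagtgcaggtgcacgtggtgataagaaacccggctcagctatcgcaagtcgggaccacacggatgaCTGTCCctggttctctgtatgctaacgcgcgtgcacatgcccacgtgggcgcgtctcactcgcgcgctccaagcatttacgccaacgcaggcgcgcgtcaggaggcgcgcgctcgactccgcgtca

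GGGCGG or its complement CCGCCC occurred 1 time before *Grm3*, at the very end of the window, and 2 times before *Gabbr1*. GGACAG or its complement CTGTCC occurred 1 time each before *Gria2* and *Grin1*. RefSeq windows were matched for 32 of the 47 members, with 39 windows in all. GGGCGG was in 18 of the 39 (46.2%) and in 32.7% of 32851 windows of the same length over all genes, and GGACAG was in 13 of the 39 (33.3%) and in 18.7% of all windows. Since the motifs were chosen after the sequences had been seen, these shares are a description. The 4 windows held 8 (*Grm3*), 16 (*Gabbr1*), 19 (*Gria2*) and 27 (*Grin1*) CpG dinucleotides, against a median of 6 over all windows and of 9 over the windows of members. A match describes letters and not binding, and the windows without a match say nothing of either factor.

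Each bulk library held 17638358 to 98414914 reads on genes. Neural libraries were made with the TruSeq kit, and the other 3 populations with SMART-Seq v4 and Nextera XT, so kit and population cannot be told apart in any comparison with neural cells. The 12 neuron markers, among them *Tubb3* and *Dcx*, summed in the other 9 libraries to 2.36% to 3.78% of their neural level, and no marker was at 0 in any of those populations. The 10 mural markers in the neural libraries summed to 0.364% to 0.397% of their mural level, and the 10 microglia markers to at most 0.00228% of their microglia level. The 12 progenitor markers summed to 84.0% to 118% of their neural level in mural and to 79.8% to 93.3% in endothelial libraries, so that list does not mark neural cells alone. In bulk RNA, fewer cells of a type and less RNA per cell cannot be told apart. Normalized counts below are the read counts divided by 1 factor per library, and the worth of 1 read ran from 0.264 to 1.77 of these units, so that a difference between 0 and 2 units can be 1 read.

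Receptor subunit transcripts were concentrated in the neural libraries. The 47 members summed to 43218, 41133 and 42877 normalized counts in the neural libraries of brains 1, 2 and 3, of which glutamate receptor subunits made up 27619, 25293 and 27433. The sums were 3739, 3577 and 4357 in mural, 2908, 1659 and 1926 in endothelial and 1928, 1553 and 1858 in microglia libraries. The neural libraries did not overlap with the rest, and the mural libraries lay above all endothelial and microglia libraries. At least 10 normalized counts in all 3 libraries were measured for 39 members in neural cells, 11 in mural cells and 6 each in endothelial cells and microglia. A mean of at least 10 that rested on only some of the libraries was found for 2 members in neural, 10 in mural, 16 in endothelial and 14 in microglia cells. The spread between brains differed in the same way: the median coefficient of variation of members with a mean of at least 10 was 6.48% in neural and 84.2%, 92.0% and 85.5% in mural, endothelial and microglia libraries.

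Of the 47 members, 43 had a mean of at least 10 over the 12 libraries and were tested with limma on log2(normalized count + 1). The other 4 were *Gabra6*, which was at 0 in all 12 libraries, *Gabrd*, *Gabrp* and *Gabrr3*. Of the 43, 17 passed the filter through the neural libraries alone, so the counts of calls over them are a description. Against the mean of the other 3 populations, 37 members were higher in neural cells (32.9% of all 19765 genes tested) and 0 were lower (31.2%) at an adjusted p under 0.05. At an unadjusted p under 0.05 of limma 1 member, *Grm6*, was lower, and edgeR and DESeq2 on the reads each called it lower at the adjusted threshold. The median fitted log2 difference of the 43 members was 5.69, with 0.09 for all genes. On the ratio of linear means, with a side at 0 set to 3 reads per library, the medians were 4.15 and -0.40 in place of these. Differences of over 10-fold were called for 34 members on the higher side, beside 13.8% of all genes, and for 0 on the lower side, beside 10%. The fit averages log values over the 3 populations, so the 34 include *Grm3* and *Grik1*, whose linear neural means were 0.354-fold and 1.45-fold the mean of the other 9 libraries, and the 37 include *Grin2a* at 0.699-fold. All 3 neural libraries lay above the other 9 for 32 of the 43 members, beside 25.2% of all genes.

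**Figure D1:**
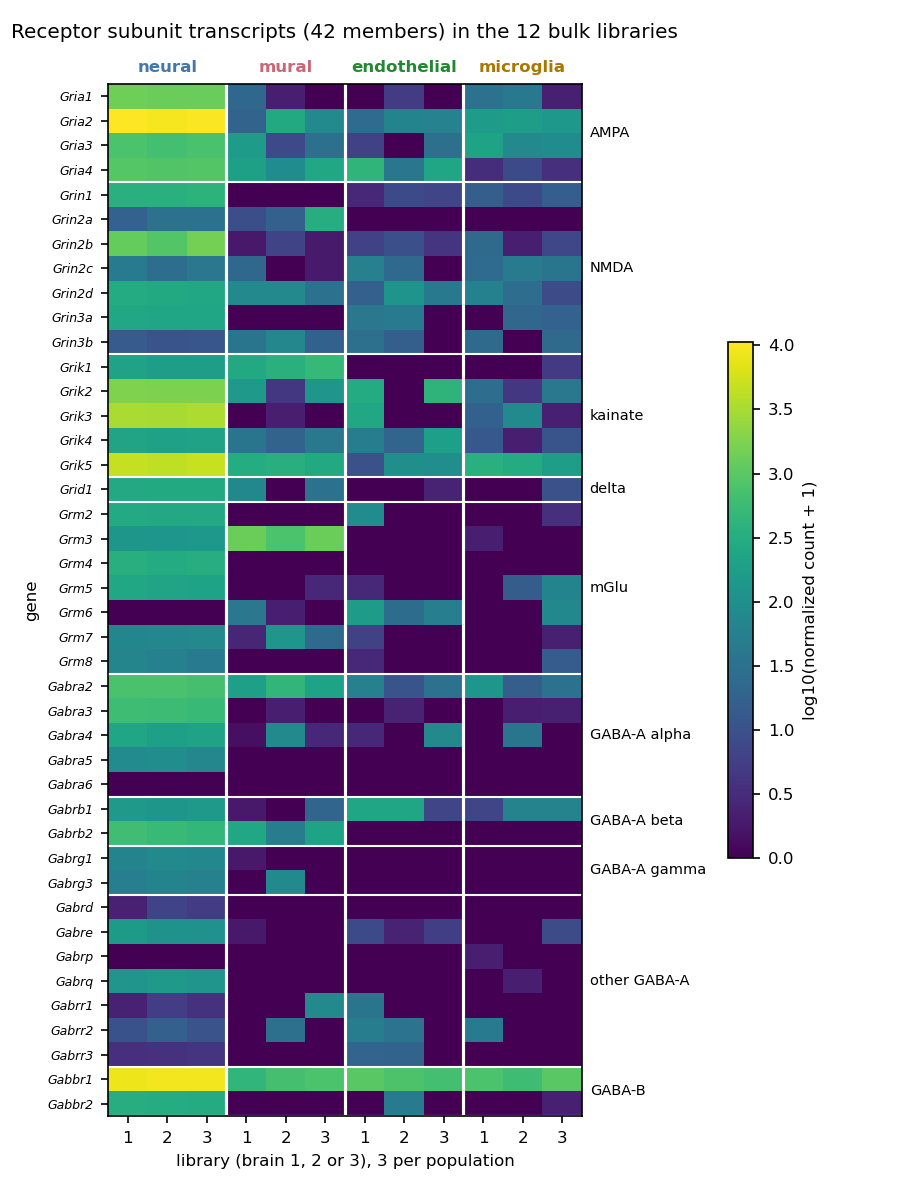
Heat map of 42 of the 47 members (rows, grouped by receptor family) in the 12 bulk libraries (columns, 3 brains per population). Colour gives log10(normalized count + 1), and the neural columns hold at least 10 normalized counts in all 3 brains for 34 of these, against 11, 6 and 6 in the mural, endothelial and microglia columns.

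AMPA receptors, which carry most fast excitatory transmission, are built from the products of *Gria1* to *Gria4*, and the *Gria2* subunit keeps calcium out of the channel. *Gria2* measured 10630, 9377 and 10102 in the neural, 18.4, 274 and 82.7 in the mural, 24.8, 63.9 and 60.3 in the endothelial and 160.5, 173 and 137 in the microglia libraries. *Gria2* had the highest neural level per kb of exon of the 4, 645 normalized counts per kb, followed by *Gria1* with 216, *Gria4* with 141 and *Gria3* with 73.1. The neural difference of *Gria2*, on the log2 scale of the normalized count + 1 and against the mean of the other 3 populations, was 6.92 ± 0.62, adjusted p = 3.7e-06 (limma, ± gives the SE here and below). Its levels outside neural cells were 1.25%, 0.495% and 1.56% of the neural level in mural, endothelial and microglia cells, below the 2.36% to 3.78% of the summed neuron markers. *Gria1* showed a like pattern and measured 1354, 1301 and 1266 in the neural, 21.4, 1.14 and 0 in the mural, 0, 4.26 and 0 in the endothelial and 32.1, 41.5 and 1.26 in the microglia libraries. *Gria3* measured 761, 660.1 and 740.0 in the neural, 163, 6.85 and 30.1 in the mural, 5.32, 0 and 30.2 in the endothelial and 214, 78.3 and 89.4 in the microglia libraries. *Gria4* measured 928, 864 and 884 in the neural, 195, 91.3 and 259 in the mural, 438, 36.9 and 241 in the endothelial and 2.38, 7.12 and 2.52 in the microglia libraries. All 4 AMPA subunits were higher in neural cells, and *Gria4* stood out from the other 3 in mural and endothelial cells, where it lay at 20.4% and 26.8% of the neural level. The neural difference was 8.17 ± 1.11, adjusted p = 8.1e-05 for *Gria1*, 4.66 ± 1.03, adjusted p = 0.0024 for *Gria3* and 4.17 ± 0.67, adjusted p = 0.00029 for *Gria4*.

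NMDA receptors need the obligatory subunit *Grin1* together with the glutamate-binding subunits *Grin2a* to *Grin2d* or the modulatory subunits *Grin3a* and *Grin3b*. *Grin2b* measured 1178, 897 and 1529 in the neural, 0.874, 5.71 and 0.939 in the mural, 5.32, 8.52 and 3.02 in the endothelial and 23.8, 1.19 and 6.29 in the microglia libraries. *Grin2b*, the prevailing partner of *Grin1* in the embryonic brain, had the highest neural level per kb of the family, 48.4, ahead of *Grin2d* with 41.9 and *Grin1* with 38.3. This order did not hold in each brain, since in brain 2 *Grin2b* had 36.1, below *Grin2d* with 41.3 and *Grin1* with 36.8. *Grin1* measured 363, 357 and 394 in the neural, 0 in all 3 in the mural, 1.77, 7.1 and 6.03 in the endothelial and 15.5, 7.12 and 15.1 in the microglia libraries. *Grin1* was the only one of the 7 subunits at 0 in all mural libraries besides *Grin3a*. Its neural difference was 6.50 ± 0.49, adjusted p = 9.3e-07, and that of *Grin2b* was 7.85 ± 0.74, adjusted p = 5.2e-06. *Grin2d* measured 299, 275 and 262 in the neural, 78.2, 77.6 and 31 in the mural, 15.9, 119 and 40.7 in the endothelial and 57.1, 26.1 and 7.55 in the microglia libraries. *Grin3a* measured 246, 230.4 and 232 in the neural, 0 in all 3 in the mural, 39, 42.6 and 0 in the endothelial and 0, 20.2 and 17.6 in the microglia libraries. *Grin2c* measured 44.1, 27.7 and 38.6 in the neural, 22.3, 0 and 0.939 in the mural, 56.7, 22.7 and 0 in the endothelial and 25, 45.1 and 35.3 in the microglia libraries. *Grin2d* and *Grin3a* were higher in neural cells, by 2.83 ± 0.69, adjusted p = 0.0044 and by 5.73 ± 1.21, adjusted p = 0.0017. *Grin2c*, known from the mature cerebellum, was not called, with a difference of 1.73 ± 1.2, adjusted p = 0.22. *Grin2a* measured 17.4, 32.1 and 31.4 in the neural, 8.3, 16 and 323 in the mural, 0 in all 3 in the endothelial and 0 in all 3 in the microglia libraries. *Grin2a*, the subunit that rises after birth, was low in neural cells, and its mural mean of 116 came mainly from the library of brain 3. It was called higher in neural cells, 3.02 ± 0.87, adjusted p = 0.011, against the mean of the other 3, and that call was lost without brain 1 (adjusted p = 0.12) or without brain 2. *Grin3b* measured 13.4, 9.97 and 11.1 in the neural, 35.4, 71.9 and 16.9 in the mural, 30.1, 15.6 and 0 in the endothelial and 23.8, 0 and 23.9 in the microglia libraries. *Grin3b* was higher in every mural library than in any neural one, overlapped with both in endothelial cells and microglia and was not called in the neural comparison (-0.13 ± 1.19, adjusted p = 0.93). It shares 1059 exon bases, 32.1% of its own, with *Tmem259* on the opposite strand, whose mean was 2908 in neural, 574 in mural, 1226 in endothelial and 1412 in microglia cells, and whether the counting used strand is not given in the sources used here.

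Kainate receptors combine the low-affinity subunits *Grik1* to *Grik3* with the high-affinity subunits *Grik4* and *Grik5*, which do not form channels alone. *Grik5* measured 4654, 4396 and 4881 in the neural, 309, 350.4 and 278 in the mural, 8.86, 99.4 and 93.5 in the endothelial and 364, 302 and 179 in the microglia libraries. *Grik5* led the family with 899 normalized counts per kb in neural cells, next in order after *Gabbr1* among the 47 members, which had 1132. *Grik3* followed with 365 and *Grik2* with 131. *Grik3* measured 3238, 3176 and 3417 in the neural, 0, 1.14 and 0 in the mural, 260.5, 0 and 0 in the endothelial and 16.6, 80.6 and 1.26 in the microglia libraries. *Grik2* measured 1775, 1734 and 1684 in the neural, 147, 3.42 and 126 in the mural, 294, 0 and 419 in the endothelial and 26.2, 3.56 and 40.3 in the microglia libraries. *Grik3* was high in neural cells and near 0 in the mural libraries, and its endothelial mean came from the library of brain 1 alone. *Grik2* reached 294 and 419 in 2 endothelial libraries and 0 in that of brain 2. The neural differences were 4.89 ± 0.6, adjusted p = 3.7e-05 for *Grik5*, 9.37 ± 1.59, adjusted p = 0.0004 for *Grik3* and 5.69 ± 1.73, adjusted p = 0.014 for *Grik2*, and the call of *Grik2* was lost without brain 1 or without brain 3 (highest adjusted p = 0.066). *Grik4* measured 222, 199 and 209 in the neural, 35.8, 18.3 and 39.4 in the mural, 47.8, 19.9 and 186 in the endothelial and 11.9, 1.19 and 10.1 in the microglia libraries. *Grik1* measured 207, 179 and 171 in the neural, 282, 364 and 506 in the mural, 0 in all 3 in the endothelial and 0, 0 and 3.78 in the microglia libraries. *Grik4* was higher in neural cells (3.20 ± 0.74, adjusted p = 0.0029). *Grik1* was higher in neural cells than in the mean of the other 3 (4.44 ± 0.56, adjusted p = 4.8e-05), although all 3 mural libraries lay above all neural libraries.

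The delta subunits bind the secreted cerebellins and hold synapses together. *Grid1* measured 266, 277 and 273 in the neural, 75.2, 0 and 31.9 in the mural, 0, 0 and 1.51 in the endothelial and 0, 0 and 8.81 in the microglia libraries. *Grid1* had 45.7 normalized counts per kb in neural cells. It was higher in neural cells, by 6.33 ± 1.19, adjusted p = 0.0008. *Grid1* also had reads in 2 of 3 mural libraries.

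The 8 metabotropic glutamate receptors fall into group I (among them *Grm5*), which raises calcium, and group II (*Grm2* and *Grm3*) and group III (*Grm4*, *Grm6*, *Grm7* and *Grm8*), both of which lower cyclic AMP. *Grm2* measured 291, 272 and 271 in the neural, 0 in all 3 in the mural, 85.1, 0 and 0 in the endothelial and 0, 0 and 2.52 in the microglia libraries. *Grm2* had the highest neural level per kb of the family, 56.8, close to *Grm4* with 53.4 and *Grm3* with 44.0. *Grm4* measured 331, 299 and 327 in the neural libraries and 0 in the other 9, at least 88.2-fold lower when 3 reads per library are put in their place. *Grm3* measured 132, 131 and 139 in the neural, 1323, 781 and 1301 in the mural, 0 in all 3 in the endothelial and 1.19, 0 and 0 in the microglia libraries. *Grm3* was higher in neural cells than in the mean of the other 3 (3.58 ± 0.46, adjusted p = 5.1e-05), a mean that takes in the endothelial and microglia levels, and lower in neural than in mural cells. Its mural mean of 1135 was 8.46-fold its neural mean of 134, and the mural and neural libraries did not overlap. Against neural cells, in a contrast added after seeing the data, the mural difference was 3.03 ± 0.56, adjusted p = 0.00089, as the only member called higher there (25.8% of all genes), and 31 members were lower (28.7%). Over 10-fold, 0 members were higher (9.5%) and 26 were lower (12.9%). Summed over the 8 receptors, the mural level of 1230 was thereby close to the neural level of 1196. *Grm5* measured 247, 227 and 213 in the neural, 0, 0 and 1.88 in the mural, 1.77, 0 and 0 in the endothelial and 0, 14.2 and 65.5 in the microglia libraries. *Grm7* measured 69.4, 71.4 and 78.5 in the neural, 1.75, 126 and 22.5 in the mural, 5.32, 0 and 0 in the endothelial and 0, 0 and 1.26 in the microglia libraries. *Grm5* reached 65.5 in 1 microglia library and *Grm7* reached 125.6 in 1 mural library and 1.75 to 22.5 in the other 2. *Grm8* measured 68.1, 57.6 and 44.6 in the neural libraries and was above 2 in 1 other library, the microglia of brain 3, with 13.8. The neural differences were 6.40 ± 1.02, adjusted p = 0.00026 for *Grm5*, 4.34 ± 1.0, adjusted p = 0.003 for *Grm7* and 5.24 ± 0.77, adjusted p = 0.00014 for *Grm8*. *Grm6* measured 0 in all 3 in the neural, 38.9, 1.14 and 0 in the mural, 165, 25.6 and 51.3 in the endothelial and 0, 0 and 74.3 in the microglia libraries. *Grm6*, known from the bipolar cells of the retina, was the only mGlu gene at 0 in all neural libraries and had reads in all 3 endothelial libraries. Its neural difference missed the threshold (-3.38 ± 1.41, adjusted p = 0.055), and its endothelial difference did too (3.83 ± 1.5, adjusted p = 0.077).

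GABA-A receptors are chloride channels that usually join alpha, beta and gamma subunits. Alpha subunits set the kinetics and drug response. *Gabra3* measured 589, 584 and 525 in the neural, 0, 1.14 and 0 in the mural, 0, 1.42 and 0 in the endothelial and 0, 1.19 and 1.26 in the microglia libraries. *Gabra3*, the alpha subunit with the highest neural level per kb (144), was at 1.42 or less in every other library. *Gabra2* followed with 93.8. *Gabra2* measured 738, 733 and 678 in the neural, 187, 444 and 216 in the mural, 54.9, 9.94 and 31.7 in the endothelial and 128, 15.4 and 30.2 in the microglia libraries. *Gabra4* measured 232, 187 and 205 in the neural, 0.437, 79.9 and 1.88 in the mural, 1.77, 0 and 76.9 in the endothelial and 0, 35.6 and 0 in the microglia libraries. *Gabra2* had reads in all 12 libraries, with the mural libraries above all endothelial and microglia libraries. *Gabra4*, in contrast, was above 2 in only 1 library of each of the other populations. *Gabra5* measured 85.5, 94.1 and 70.8 in the neural libraries and 0 in the other 9, at least 23.1-fold lower at 3 reads per library. All 5 alpha subunits tested were higher in neural cells, with 8.63 ± 0.49, adjusted p = 1.2e-07 for *Gabra3*, 3.44 ± 0.65, adjusted p = 0.00083 for *Gabra2* and 5.33 ± 1.61, adjusted p = 0.014 for *Gabra4*. The call of *Gabra4* was lost without brain 1 and without brain 3 (highest adjusted p over its alternatives = 0.14). *Gabra6*, which marks cerebellar granule cells formed later, had no read in any library.

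Beta subunits carry, with alpha subunits, the GABA binding site. In neural cells *Gabrb2* had 82.5 and *Gabrb1* 10.2 normalized counts per kb. *Gabrb2* measured 609, 507 and 458 in the neural, 261, 49.1 and 215 in the mural, 0 in all 3 in the endothelial and 0 in all 3 in the microglia libraries. *Gabrb1* measured 147, 135 and 143 in the neural, 0.874, 0 and 19.7 in the mural, 234, 243 and 6.03 in the endothelial and 5.94, 62.9 and 61.7 in the microglia libraries. *Gabrb2* was at 0 in all 6 endothelial and microglia libraries and present in all 3 mural ones. *Gabrb1* was as high in 2 endothelial libraries as in the neural ones and was not called in the neural comparison (2.86 ± 1.26, adjusted p = 0.067). *Gabrb2* was higher in neural cells, by 6.65 ± 0.55, adjusted p = 1.9e-06.

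Gamma subunits anchor the receptor at synapses. *Gabrg1* measured 64.1, 80.3 and 73.4 in the neural libraries and 2 reads in 1 of the other 9. *Gabrg3* measured 52.1, 65.3 and 55.5 in the neural, 0, 81 and 0 in the mural, 0 in all 3 in the endothelial and 0 in all 3 in the microglia libraries. The neural differences were 6.10 ± 0.34, adjusted p = 9.9e-08 for *Gabrg1* and 5.16 ± 1.11, adjusted p = 0.0019 for *Gabrg3*. For *Gabrg3* only the mural library of brain 2 held reads outside neural cells.

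The 7 other GABA-A genes include epsilon, theta, delta, pi and the rho subunits of the retina. *Gabre* measured 156, 114 and 107 in the neural, 0.874, 0 and 0 in the mural, 7.09, 1.42 and 4.52 in the endothelial and 0, 0 and 7.55 in the microglia libraries. *Gabre* and *Gabrq*, which are known from hypothalamus and brainstem, were higher in neural cells by 5.77 ± 0.7, adjusted p = 3.5e-05 and by 6.92 ± 0.37, adjusted p = 6.7e-08. *Gabrq* measured 127, 143 and 125 in the neural libraries and had 1 read in 1 of the other 9. The rho genes had few reads in most libraries. *Gabrr1* measured 1.34, 4.43 and 2.91 in the neural, 0, 0 and 82.7 in the mural, 35.4, 0 and 0 in the endothelial and 0 in all 3 in the microglia libraries. *Gabrr2* measured 9.35, 16.1 and 9.77 in the neural, 0, 29.7 and 0 in the mural, 47.8, 32.6 and 0 in the endothelial and 46.4, 0 and 0 in the microglia libraries. Neither was called in the neural comparison (0.59 ± 1.41, adjusted p = 0.73 and 1.28 ± 1.57, adjusted p = 0.49). *Gabrr3* measured 2.67, 2.77 and 3.17 in neural and 19.5, 18.5 and 0 in endothelial libraries and 0 in the other 6. *Gabrd* measured 1.34, 5.54 and 4.23 in neural libraries and 0 elsewhere, and *Gabrp* had 1 read in 1 microglia library.

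The GABA-B receptor is an obligate pair: *Gabbr1* binds GABA, and *Gabbr2* brings it to the surface and couples to the G protein. *Gabbr1* measured 8483, 8958 and 8935 in the neural, 452, 684 and 767 in the mural, 1006, 795 and 669.6 in the endothelial and 771, 587 and 995 in the microglia libraries. *Gabbr1* was the only member with over 400 normalized counts in every library, and its neural mean was 13.9-fold the mural, 10.7-fold the endothelial and 11.2-fold the microglia mean. *Gabbr2* measured 325, 310.1 and 295 in the neural, 0 in all 3 in the mural, 0, 45.4 and 0 in the endothelial and 0, 0 and 1.26 in the microglia libraries. *Gabbr2* was thus at 0 in 7 of the 9 other libraries, at 45.4 in 1 and at 1 read in 1. In neural cells *Gabbr2* had 46.3 normalized counts per kb, against 1132 for *Gabbr1*. Both were higher in neural cells (3.59 ± 0.21, adjusted p = 1.2e-07 and 7.53 ± 1.0, adjusted p = 7.3e-05). *Gabbr1* at 7.21%, 9.37% and 8.92% of its neural level lay above the summed neuron markers and below the single marker with the highest share in each population (15.3%, 10.4% and 14.6%), and the part of neuronal RNA in it was not tested.

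Mural cells had the most members above the other non-neural cells. Compared with the mean of endothelial cells and microglia, whose libraries were made with the same kit, 8 members were higher (16.9% of all genes) and 2 were lower (19.3%), so the share of the 43 members was near the background for the first and under it for the second. Over 10-fold, 6 were higher (5.95%) and 1 was lower (6.35%). The largest differences were those of *Grm3* and *Grik1*. *Grm3*, at chr5:9485541-9725170, minus strand (GRCm38), measured 1323, 781 and 1301 in mural libraries and had 1 read in the 6 others, a mural mean at least 241-fold the endothelial one at 3 reads per library (9.92 ± 0.48, adjusted p = 2e-07). *Grik1*, at chr16:87895900-88290265, minus strand, measured 282, 364 and 506 in mural libraries, 0 in endothelial ones and 3 reads in 1 microglia library, at least 81.7-fold the endothelial level (8.17 ± 0.59, adjusted p = 2.5e-06). Against neural cells its mural level was 2.07-fold higher without being called (1.01 ± 0.69, adjusted p = 0.24). *Gabrb2*, the beta subunit, was at least 37.3-fold the endothelial and at least 48.2-fold the microglia level (7.15 ± 0.58, adjusted p = 5.6e-06). Per kb of exon, mural cells held 372 normalized counts of *Grm3*, 81.7 of *Gabbr1*, 60.5 of *Grik5* and 57.1 of *Grik1*. Smaller differences were called for *Gabra2* (2.99 ± 0.69, adjusted p = 0.0061), *Gria4* (2.63 ± 0.71, adjusted p = 0.014), *Grin2a* (5.21 ± 0.93, adjusted p = 0.0012) and *Grm7* (3.69 ± 1.06, adjusted p = 0.019). Of these, *Grin2a* and *Grm7* had most of their mural level in 1 library. Calls were lost without brain 2 or 3 for *Gabra2* and *Grm7* and without brain 1 or 3 for *Gria4*, with adjusted p up to 0.26, while *Grm3*, *Grik1* and *Gabrb2* were called under all 11 alternatives. *Grin2a* was called in the 9 alternatives that tested it and fell under the filter without brain 3. *Grin1* and *Gabrb1* were lower in mural cells (-3.06 ± 0.52, adjusted p = 0.00092 and -3.80 ± 1.33, adjusted p = 0.046). The call of *Gabrb1* was lost under 7 of 11 alternatives, among them a block for the brain (highest adjusted p = 0.42). All 3 mural libraries lay above the 6 others for 5 members, beside 10.7% of all genes. Markers of other cells were measured beside these values. In mural libraries *Pdgfra*, which marks fibroblasts and oligodendrocyte precursors, measured 0, 0 and 0.939, *Olig1* at most 0.874 and *Olig2* 28.2 to 81.0, and the summed neuron markers overlapped with those of the other 2 populations. The 7 oligodendrocyte precursor markers summed to 8247 to 10511 in mural libraries, of which *Cspg4*, also a mural gene, made up 8160 to 10410. The 10 fibroblast markers, none at 0 in mural cells, summed there to 9770 to 12520, against 108 to 698 in endothelial cells and 79.3 to 329 in microglia, and their part in the mural values of the bulk libraries was not tested.

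**Figure D2:**
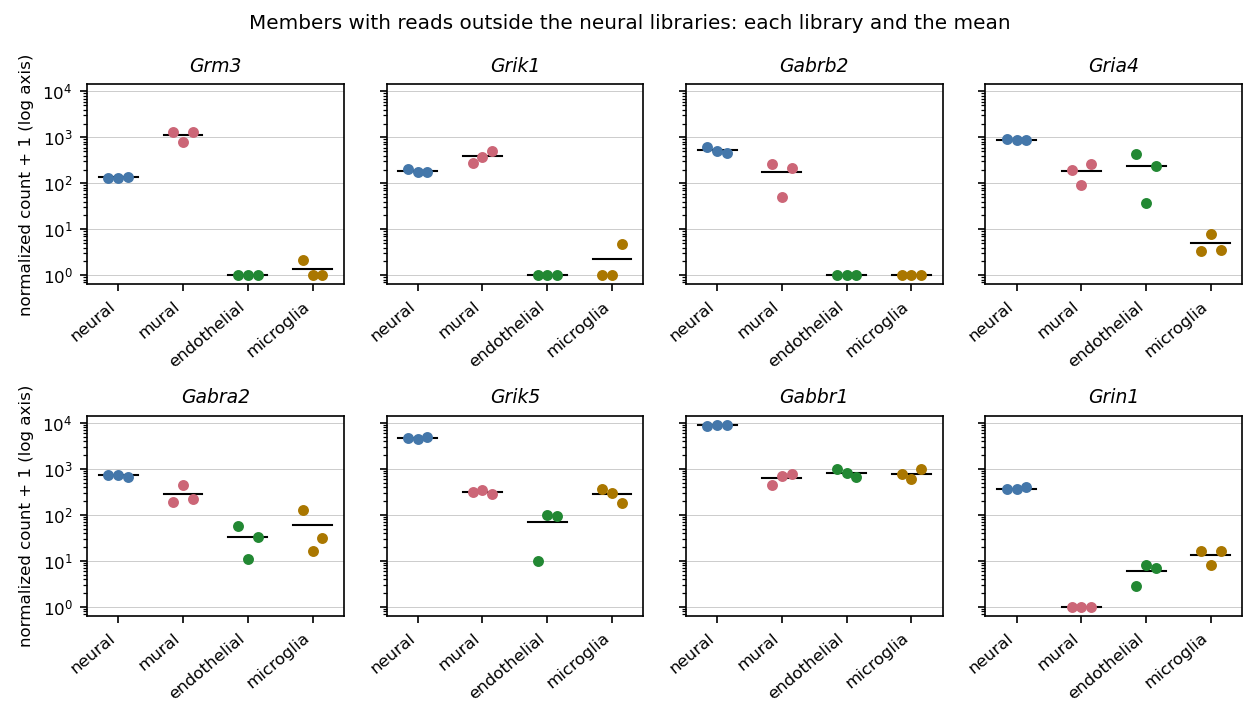
Normalized count + 1 (log axis) of 8 members in each of the 12 bulk libraries, with points for single libraries and a line for the mean of 3. Mural points of *Grm3* and *Grik1* sit above the neural points, *Gabbr1* is above 400 in every library, and *Grin1* is at 0 in the mural libraries.

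In endothelial cells 1 member was higher than in the mean of mural cells and microglia (14.6% of all genes) and 5 were lower (16% of all genes). Over 10-fold, 0 were higher (5.78%) and 4 were lower (6.21%). The higher one was *Gria4* (2.52 ± 0.71, adjusted p = 0.021), whose endothelial libraries ranged from 36.9 to 438 and overlapped with the mural ones. Without brain 1 or without brain 3 the call of *Gria4* was lost (adjusted p up to 0.23), and limma called 0 members higher without brain 1. With a block for the brain *Grik4* was called too, giving 2 members, and edgeR and DESeq2 on the reads each called 6. Lower were *Grm3* (-5.24 ± 0.48), *Grik1* (-4.65 ± 0.59), *Gabrb2* (-3.57 ± 0.58), *Gria3* (-3.43 ± 1.1) and *Grik5* (-2.68 ± 0.63), with adjusted p from 1.6e-05 to 0.036 (limma). The first 3 of these had at most 3 reads in any endothelial or microglia library, and their difference here lies in the mural libraries. *Gria3* lost its call without any of the 3 brains in turn, with the highest adjusted p = 0.23, and *Gabrb2* lost it with edgeR on reads (adjusted p = 1.0). In microglia 1 member was higher than in the mean of mural and endothelial cells (19.6% of all genes) and 6 were lower (17.6%). Over 10-fold, 0 were higher (7.85%) and 4 were lower (6.79%). All 3 libraries lay above the other 6 for 1 member in microglia (14.2%) and for 0 in endothelial cells (8.63%). The higher one was *Grin1* (2.47 ± 0.52, adjusted p = 0.0032), at 15.5, 7.12 and 15.1 in microglia, 1.77, 7.1 and 6.03 in endothelial and 0 in mural libraries. These microglia values of *Grin1* were 3.38% of its neural level, within the range of the summed neuron markers in microglia (2.57% to 3.5%), and the part of neuronal RNA in them was not tested. With a block for the brain *Gria3* was called too, giving 2 members, and edgeR and DESeq2 on the reads each called 2. *Gria4* was lower in microglia (-5.15 ± 0.71, adjusted p = 0.00018), at 2.38, 7.12 and 2.52, with no overlap with mural or endothelial libraries. *Grik4* (-2.63 ± 0.78, adjusted p = 0.021), *Grm3*, *Grik1*, *Gabrb2* and *Grin2a* were the other 5, and *Grik4* lost its call without brain 1 or 3 (highest adjusted p = 0.099). *Grin2a* lost its call in microglia under 6 of 9 alternatives, among them those without brain 1 or without brain 2, and *Grm3*, *Grik1* and *Gabrb2* lost theirs there with edgeR on reads (adjusted p = 0.97 or above). Border macrophage markers, 8 genes with none at 0 in microglia, summed to 16951 to 22965 in microglia libraries, 253 to 318 in endothelial and 325 to 994 in mural ones. Erythroid markers, 8 genes with none at 0 in endothelial cells, summed to 13164 to 34189 in endothelial libraries, 242 to 598 in mural and 1692 to 2096 in microglia ones. Their part in the endothelial and microglia values was not tested. *Grik5* measured 309, 350.4 and 278 in mural and 364, 302 and 179 in microglia libraries, at 6.73% and 6.07% of its neural level.

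**Figure D3:**
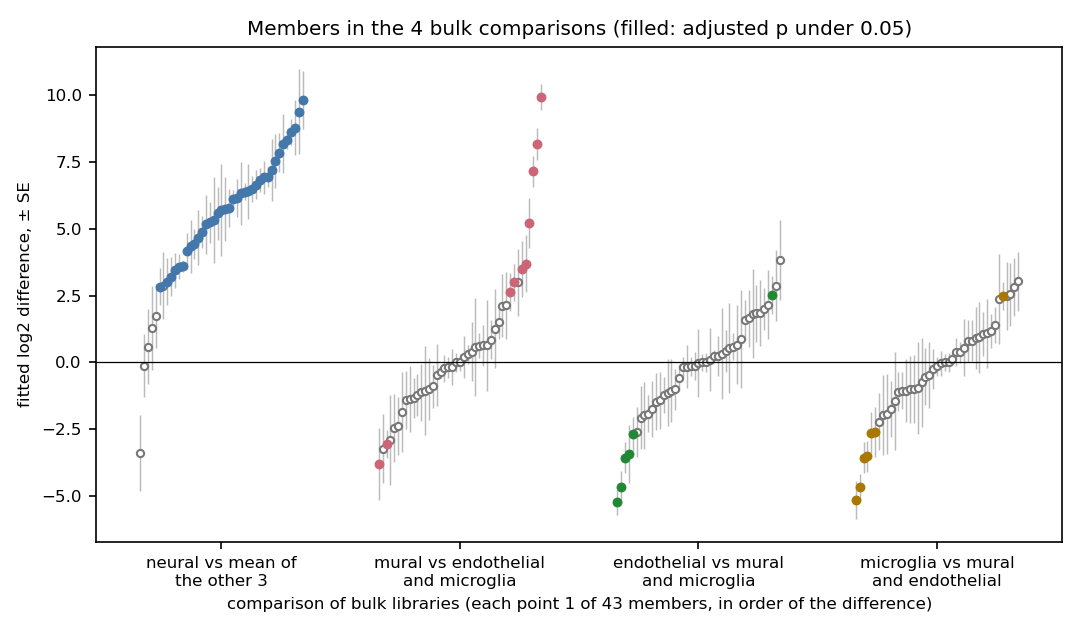
Fitted log2 differences of the 43 members tested, with SE, in the 4 bulk comparisons, where filled points have an adjusted p under 0.05. In the neural comparison 37 points are filled and all of these are above 0, and in the comparison of mural cells the highest points are *Grm3*, *Grik1* and *Gabrb2*.

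The single cells were far shallower. Of 994 wells with 1 of the 4 gates, 686 cells held over 1500 transcripts: 123 neural, 210 mural, 225 endothelial and 128 microglia, with median depths of 7717, 6885, 6408 and 10761 transcripts. Plate 3 gave few of them, with 14, 10, 13 and 6 cells. Rows for 37 of the 47 members were present. Members summed to 910, 944 and 898 counts per 1e6 transcripts of the cells (CPM) in the neural gate on plates 1 to 3, to 152, 144 and 109.8 in the mural gate, to 122, 112 and 242 in the endothelial gate and to 26.6, 38.8 and 138 in the microglia gate. The neural sums did not overlap with the others. The highest endothelial and microglia sums came from plate 3, which had the fewest cells. After the filter on low counts 8 members could be tested with edgeR on sums per plate and gate, and all 8 were higher in the neural gate than in the mean of the other 3 gates, beside 22.5% of all 9281 genes. The log2 differences were 6.67 ± 0.33 for *Gria2*, 4.90 ± 0.46 for *Grin2b* and 3.93 ± 0.56 for *Grik3*, with adjusted p from 6.2e-24 to 4.1e-08. They were smaller for *Gria4* (2.76 ± 0.54), *Gabbr1* (2.02 ± 0.29) and *Gabra2* (1.75 ± 0.35). *Gabbr1* lost its call without plate 1 (adjusted p = 0.083), and *Gabra2* lost it without plate 1, without plate 2 and with DESeq2. On plates 1 to 3, *Gria2* measured 263, 362 and 252 CPM in the neural gate, 14.2, 10.6 and 13.7 in the mural, 9.38, 3.14 and 0 in the endothelial gate and 0 in the microglia gate. Outside the neural gate, *Gria2* was higher in the mural gate than in the mean of endothelial cells and microglia (3.10 ± 0.84, adjusted p = 0.0029, edgeR), 1 of 8 members beside 15.6% of all genes. It lost this call without plate 2 (adjusted p = 0.059). Its 19 mural-gate transcripts came from 9 of 210 cells. In 6 mural-gate cells transcripts of 4 or more members were found, with neuron markers from 0 to 8943 CPM, and without these cells, left out after seeing the data, 4 of 204 cells held *Gria2* and 20 of 204 held *Grm3*. In the endothelial gate 7 cells held transcripts of 4 or more members, up to 13 in 1 cell, with neuron markers from 0 to 9206 CPM, and had 66 of the 205 member transcripts of that gate. Without them *Grin2b* fell there from 6.002 to 2.53 CPM and *Gria2* was in 5 of 218 cells. No microglia cell held 4 or more. The cells left out in the mural and endothelial gates were chosen for their member transcripts. Lower values without them follow from that choice and do not show where the transcripts came from. In the microglia gate *Gria2*, *Gabbr1* and *Gria4* were lower than in the mean of the mural and endothelial gates (-5.05 ± 1.33, -1.43 ± 0.45 and -2.56 ± 1.02, adjusted p = 0.0015, 0.0079 and 0.04, edgeR), beside 20.1% of all genes, and 0 members were higher there (20.3%), also at an unadjusted p under 0.05 and with DESeq2. *Gria2* had no transcript in the microglia gate on any plate, so its -5.05 is not a measured fold. Its differences of 6.67 for the neural gate and 3.10 for the mural gate average in the same zeros. In the microglia gate the call of *Gria2* was lost without plate 1, that of *Gabbr1* without plate 1 or plate 2, and that of *Gria4* with a block for the plate. In the endothelial gate edgeR and DESeq2 each called 0 members higher (15.7% of all genes), and 3 passed an unadjusted p under 0.05 with edgeR. The numbers of lower members in the endothelial (8.79%), mural (13.7%) and neural gates (17.3%) were 0 in edgeR, also at an unadjusted p under 0.05.

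Within the neural gate, cells were placed by 12 neuron and 12 progenitor markers into 84 neuron-like and 39 progenitor-like cells, of which 5 and 12 lay near the boundary. Median depths were 7698 and 8062 transcripts. The members are in neither list. Of 2247 genes tested, 10.5% were higher in neuron-like cells, and 2 members, *Gria2* and *Grin2b*, could be tested. Both were higher, but *Grin2b* passed the filter through the neuron-like cells alone, so the count of 2 is a description. Lower calls were made for 7.52% of all genes and for 0 members, with 0 at an unadjusted p under 0.05 in edgeR. *Gria2* measured 355, 457 and 439 CPM in neuron-like cells of plates 1 to 3 and 90.0, 50.5 and 83.3 CPM in progenitor-like cells (2.37 ± 0.33, adjusted p = 0.00035, edgeR). *Grin2b* measured 87.8, 121 and 185 CPM in neuron-like cells and 0 in progenitor-like cells of each plate, so its difference has an adjusted p of 0.0019 and no fold. The share of cells with a transcript of any member was 75 of 84 (89.3%) in neuron-like and 22 of 39 (56.4%) in progenitor-like cells, and 66.3% and 23.9% after thinning each cell to 1500 transcripts. In mural, endothelial and microglia gates it was 53.3%, 42.7% and 32.0%, and 17.84%, 14.52% and 5.75% after thinning. *Grin2b* was found in 29 of 84 neuron-like cells (34.5%), and in 11.2% after thinning, and in 0 of 39 progenitor-like cells, for which the share that 3 cells would give, used here as the limit at a count of 0, is 7.69%. AMPA subunits were found in 58 of 84 neuron-like cells (69.0%) and in 13 of 39 progenitor-like cells (33.3%), and in 38.8% and 8.11% after thinning. Kainate subunits were found in 39 (46.4%) and 9 (23.1%), and *Grik2* in 18 of 84 and 5 of 39. *Gabrb1* was found in 6 of 84 neuron-like and 4 of 39 progenitor-like cells (7.14% and 10.3%, 95% intervals 2.67% to 14.9% and 2.87% to 24.2%). These intervals overlap, so the shares could not be told apart with these cells. As a background, in the other gates *Gria2* was found in 9 of 210 mural (4.29%), 6 of 225 endothelial (2.67%) and 0 of 128 microglia cells (up to 2.34%), and *Grin2b* in 2 (0.952%), 7 (3.11%) and 1 (0.781%). Intervals and limits cover counting error only.

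*Gabra2*, *Gabbr1* and *Grm3* were the members found in the most mural-gate cells. *Grm3* was found in 22 of 210 mural-gate cells (10.5%, 95% interval 6.68% to 15.4%, and 1.91% after thinning), in 0 of 123 neural cells (up to 2.44% by the limit of 3 cells), in 1 of 225 cells of the endothelial gate (0.444%) and in 0 of 128 microglia (up to 2.34%). The mural cells with *Grm3* were 8 of 95 on plate 1, 13 of 105 on plate 2 and 1 of 10 on plate 3. All 22 held transcripts of the mural genes *Rgs5*, *Abcc9* and *Cspg4*, and 20 held *Pdgfrb*, while none held *Pdgfra*, *Olig1* or *Dcn*, 1 held *Olig2*, 2 held *Tubb3* and 5 held the fibroblast gene *Col1a1*. Of the other 188 mural-gate cells, 1 held *Olig2* and 24 held *Col1a1* (22.7% and 12.8% for *Col1a1*). Neuron markers summed to 57.7 CPM in these 22 cells and to 247 CPM in the other 188 mural-gate cells, fibroblast markers summed to 755 and 780.2 CPM, and median depths were 8761 and 6709 transcripts. *Grm3* thus had reads in all 3 mural libraries of the bulk data and transcripts in mural-gate cells of all 3 plates. In the neural libraries 863 reads of *Grm3* were counted in all, and no transcript of it was seen in the 123 cells of the neural gate. *Gabbr1* was found in 41 of 123 neural (33.3%), 42 of 210 mural (20%), 37 of 225 endothelial (16.4%) and 13 of 128 microglia cells (10.2%), and in 11.61%, 4.79%, 4.89% and 1.61% after thinning. *Gabra2* was found in 27 (22%), 42 (20%), 26 (11.56%) and 14 cells (10.9%), and in 7.22%, 4.19%, 2.31% and 2.19% after thinning. These shares outside the neural gate were above those of *Grin2b* in the same gates, which did not exceed 3.11%. *Grik1* was found in 7 mural cells, 1 neural cell and no endothelial or microglia cell, and *Grik5* in 19 neural, 13 mural, 2 endothelial and 1 microglia cell.

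**Figure D4:**
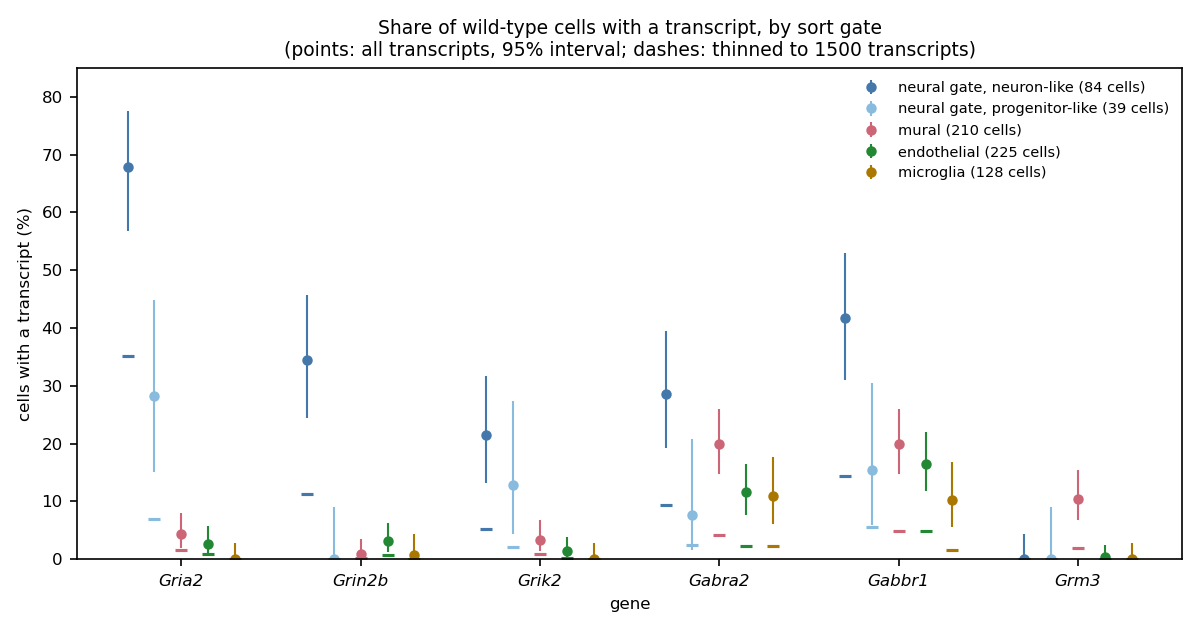
Percent of wild-type cells with a transcript of 6 members, in neuron-like and progenitor-like cells of the neural gate and in the mural, endothelial and microglia gates. Points use all transcripts and carry exact 95% intervals, and dashes give the share after thinning to 1500 transcripts. *Gria2* reaches 67.9% of neuron-like cells, and *Grm3* is at 10.5% in the mural gate and at 0.444% or less in the others.

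Genes that work with the receptors were described from 3 lists. All 30 glutamate receptor partners tested were higher in neural cells, with a median log2 difference of 5.77 beside 0.09 for all genes, as were 11 of 14 GABA receptor partners (median 2.45) and 13 of 14 genes for transmitter synthesis and transport (median 6.73), beside 32.9% of all genes. None was lower (31.2%). Of the genes tested, 9 of the 30, 1 of the 14 and 3 of the 14 passed the filter through the neural libraries alone, so these counts and medians are a description. Among the populations outside the neural gate, the median log2 differences of the glutamate, GABA and transmitter lists were 0.04, 0.73 and 0.03 for mural cells beside -0.04 for all genes. For endothelial cells they were 0, 0.20 and -0.19 beside -0.06, and for microglia -0.42, -0.79 and 0.43 beside 0.06. In neural cells against the mean of the other 3 populations, 3 glutamate receptor partners differed most. These were *Cacng7* (10.28 ± 0.77, adjusted p = 8.7e-07, limma), an auxiliary AMPA receptor subunit, the scaffold *Dlg2* (9.02 ± 0.66) and the auxiliary subunit *Shisa6* (8.74 ± 0.33). Of the GABA receptor partners, *Shisa7* (8.83 ± 1.38), *Hap1* (7.10 ± 1.14) and the adhesion protein *Nlgn2* (6.21 ± 0.71) differed most. Of the transmitter genes, these were the vesicular GABA transporter *Slc32a1* (9.64 ± 0.41) and the GABA-synthesizing enzyme *Gad1* (9.36 ± 1.6). Against endothelial cells and microglia, mural cells had 7 of 30 glutamate receptor partners higher and 4 lower, beside 16.9% and 19.3% of all genes. *Cacng4*, an auxiliary AMPA receptor subunit, averaged 3876 normalized counts in mural, 3434 in neural, 201 in endothelial and 248 in microglia cells (4.09 ± 0.29, adjusted p = 2.3e-06, limma). *Cnih3* (2.86 ± 0.99) and *Dlg3* (2.59 ± 0.88) were next, and *Grip2*, *Dlgap1* and *Cbln2* were lowest (-3.79 ± 1.12, -3.53 ± 0.81 and -3.46 ± 1.06). The chloride importer *Slc12a2* averaged 10566 in mural, 1447 in endothelial, 2314 in microglia and 2212 in neural cells (mural against endothelial cells and microglia, 2.69 ± 0.39, adjusted p = 0.00034, limma), with *Lhfpl4* (2.69 ± 0.6) and *Nlgn2* (2.16 ± 0.75) among 4 GABA receptor partners higher there and *Kctd12* (-4.75), *Trak1* (-1.095) and *Gabarapl1* (-0.79) the 3 lower. The glutamate transporter *Slc1a3* averaged 1001 in mural, 2.54 in endothelial and 240 in microglia cells (5.06 ± 0.35), *Gad2* was higher too (3.67 ± 1.25), and *Glul*, which makes glutamine, was lower (-2.72 ± 0.19). In endothelial cells 5 glutamate receptor partners were higher and 3 lower, beside 14.6% and 16% of all genes. *Shank3* averaged 1294 there, 26.4 in mural cells and 3.56 in microglia (7.25 ± 0.76), followed by *Grip2* (4.41 ± 1.12) and *Homer3* (2.05 ± 0.3), while *Dlg3* (-4.86), *Cacng4* (-2.22) and *Cnih2* (-1.3) were lowest. *Gabarapl1* (2.17 ± 0.19) and the glutamate transporter *Slc1a1* (4.098 ± 1.004) were the higher genes of the other 2 lists, and *Lhfpl4* (-1.99), *Slc12a2* (-1.81), *Gabarap* (-0.76), *Slc1a3* (-7.06) and *Gad2* (-4.19) the lower ones. In microglia *Kctd12*, which binds GABA-B receptors, averaged 10013 against 88.7 in mural and 381 in endothelial cells (5.93 ± 0.47, adjusted p = 2.2e-06, limma), and *Glul* averaged 17058 (2.20 ± 0.19). *Gabarap* (0.99 ± 0.15), *Slc17a7* (2.58 ± 0.93), *Slc1a3* (2.002 ± 0.35) and *Cbln2* (3.22 ± 1.06) were higher as well. Of all genes, 19.6% were higher and 17.6% lower in microglia. Lower there were 7 glutamate receptor partners, led by *Shank3* (-5.57), *Grip1* (-3.53) and *Homer2* (-2.43), 4 GABA receptor partners, among them *Slc12a5* (-2.02) and *Gabarapl1* (-1.38), and *Slc1a1* (-3.68). Adjusted p of the genes named here lay under 0.05.

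Most GABA-A genes lie in clusters of 2 to 4 genes, and neighbours differed in level (GENCODE vM21, GRCm38). On chr5:70751047-72149037 lie *Gabrg1*, *Gabra2*, *Gabra4* and *Gabrb1*, of which *Gabra2* had mural reads in all 3 brains and *Gabrg1* had 2 reads in the 3 mural libraries together. The cluster on chrX:72255999-72842602 holds *Gabre*, *Gabra3* and *Gabrq*, and *Gabrr2* and *Gabrr1* lie on chr4:33062999-33163588. The X chromosome cluster was called higher in neural cells for all 3 genes and had at most 7.55 normalized counts in any other library. *Gabra4* and *Gabrb1* share 46 exon bases on opposite strands, and *Grin1* shares 13.5% of its exon bases with the antisense gene *Grin1os*, whose mean was at most 0.526 in any population.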

How the data were processed

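Sorted populations from E14.5 wild-type mouse brains were measured by bulk RNA-seq (12 libraries) and by mCEL-Seq2 in single wells. The submitters' processing notes name mm10, BWA 0.6.2-r126, STAR, featureCounts and DESeq2, with no roles. Bulk values were deposited by the authors as normalized signal, which are gene counts divided by 1 size factor per library. All of 124078 low values were whole multiples of 1 read within 0.01 read, so reads could be recovered. Single-cell values were deposited by the authors in the form of expected counts of transcripts per gene and well, corrected for barcode collisions, and were rounded after summing for the count tests.

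Symbols, exon lengths and positions came from GENCODE vM21, and promoter windows from RefSeq (GRCm38.p6). Whether reads were counted by strand is not given in the sources used here. Bulk differences were fitted with limma 3.58.1 (R 4.3.3) on log2(normalized count + 1) over the 19765 genes with a mean of at least 10, all 12 libraries in 1 fit, with Benjamini-Hochberg adjusted p. Fold changes are on that scale, which understates changes of low genes. Cells with over 1500 transcripts were summed per plate and gate and tested with edgeR 4.0.16 (quasi-likelihood). Each gate was on each plate, and the labels do not say which brain a cell came from, so p-values measure the spread between plates there and between the 3 brains in bulk. No doublet caller was run. Wells of knockout embryos carry no gate and were not used here. Intervals are exact binomial with 95% confidence, the limit at a count of 0 is 3 cells of the total, and thinned shares used 1500 transcripts per cell. With DESeq2 1.42.0 and edgeR on recovered reads, other filters, pseudocounts, scalings and left-out brains or plates as alternatives, each result was recomputed.

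In data simulated on the bulk comparison of neural cells, limma recovered 100 of 100 genes changed 10-fold and 28 of 100 changed 2-fold, with 10 calls among 19607 unchanged genes. For the single-cell comparison edgeR recovered 100 of 100 and 36 of 95, with 9 calls among 8802 unchanged genes. Each simulation gave every gene the same spread, set beforehand and not taken from the members. Members with a mean of at least 10 had median coefficients of variation of 84.2%, 92.0% and 85.5% in mural, endothelial and microglia libraries. The simulations therefore do not give the recovery of members whose levels vary this much.

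The members and the gene lists were chosen with earlier results of these data known. Values in every library are given for the member with the highest neural level per kb in each family, each member with a mean of at least 10 in a population outside neural cells and each member whose highest population was not neural. Of the partner genes, the 3 largest called changes in either direction are named per list and comparison. Values of some members and partner genes are not reported here, and counts and sums still include them.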

Additional observations from a re-analysis of the deposited data

Results flagged for a closer look

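Wells of 1 further sort gate, PDGFRβ medium or low, entered no comparison and held receptor transcripts. In the 23 of its 25 wells with over 1500 transcripts the 47 members summed to 371.7 CPM, 61 of 164145 transcripts, above the limit of 18.3 CPM that 3 transcripts would give. A member was found in 16 of the 23 wells, led by *Gabbr1* with 16 and *Gria2* with 15 transcripts. For comparison, the members summed to 924 CPM over the neural gate and to 146 CPM over the mural gate. Depth and cell make-up of these wells were not compared with a control, and the gate has no label of a cell type.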

How the results depend on the processing

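Of the bulk calls, 33 of 37 for neural cells, 5 of 10 for mural cells, 3 of 6 for endothelial cells and 2 of 7 for microglia were kept under every alternative that tested the gene, and no result changed its sign. The members lower in neural cells rose from 0 to 1 with quantile normalization, edgeR and DESeq2, *Grm6* in each. Members higher in mural cells ranged from 4 to 7 when 1 brain was left out, against 8 with all. Members higher in endothelial cells, 1 in all libraries, were 2 with a filter at a mean of 1, without a filter and with quantile normalization, 6 with edgeR or DESeq2, 0 at over 10-fold and 0 to 2 when 1 brain was left out. Members higher in microglia, 1 in all libraries, were 2 with a pseudocount of 5, edgeR or DESeq2, 0 at over 10-fold and 1 to 2 when 1 brain was left out. The causes of these shifts were not tested.

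A replicate block for the brain gave 2 members higher in endothelial cells and 2 in microglia. Libraries of 1 brain did not deviate together, with residual correlations between -0.054 and 0.0801, and *Gabrb1* lost its mural call (lower) under the block. Quantile normalization moved the median difference of all genes for neural cells from 0.09 to -0.16 and the share of higher among all calls from 51.3% to 45.0%, and DESeq2 moved the median to -0.34.

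In single cells, members higher in the neural gate numbered 8, without a filter 23, and 4 to 10 when 1 plate was left out. For the mural gate these were 1, 4 and 0 to 5, and for the endothelial gate 0 and, without a filter, 2. Between neuron-like and progenitor-like cells 2 members were higher, 4 with DESeq2, 1 without cells near the boundary and 1 to 6 when 1 plate was left out. The share of mural-gate cells with *Grm3* fell from 10.5% to 1.91% when cells were thinned to 1500 transcripts. In the single cells 8 of 47 members could be tested between gates and 2 between classes. The bulk contrast of mural against neural cells and the counts without cells holding 4 or more members were added after seeing the data.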
